A study of Mus musculus with 19 samples.

Results

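The regions described here are the FLAG ChIP-seq summits called in wild-type testes, which carry no FLAG tag. All summits of the 3 wild-type libraries were taken, with no selection on score or position. They are taken here as background, since the antibody had no tagged protein to bind. The paper considers genes found this way likely due to non-specific binding. What gave rise to the summits was not tested. There were 1007 of them among 12028 summits in the 6 ChIP libraries (8.37%), with 798, 45 and 164 in wild-type replicates 1, 2 and 3. The 3 libraries from mice carrying the tag, of genotype Stra8 FLAG/FLAG (both alleles of Stra8 encode a FLAG-tagged protein), held 5687, 3299 and 2035 summits.

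Each library came from the unsorted testes of 1 mouse on a C57BL/6 background (under 4% 129). In every mouse spermatogenesis was synchronized with WIN18,446 from postnatal day 2 to 8 and retinoic acid on day 9, and testes were taken 6.75 days later, when germ cells that start meiosis are enriched. Chromatin was precipitated with the FLAG M2 antibody and set against the input chromatin of the same testis. Same-numbered wild-type and FLAG/FLAG libraries went through precipitation, library preparation and sequencing side by side, so the replicate number is also a batch, and replicate 3 was built with another library kit (Accel-NGS 2S Plus) than replicates 1 and 2 (TruSeq). A further 7 RNA-seq libraries came from sorted preleptotene cells on C57BL/6, from mice under the same synchronization: 3 from Stra8 knock-out (Stra8-deficient) mice, and 2 low-STRA8 and 2 high-STRA8 from Stra8 heterozygous mice. Read depth of the ChIP libraries was not given in the files used here.

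STRA8 is a nuclear protein that germ cells make when they enter meiosis, and the tag lets the FLAG antibody pull down the DNA it sits on. The study removes genes with a wild-type promoter summit from its list of STRA8-bound genes, so these regions also decide which genes stay in that list. Promoters of 6 meiotic genes served as a check of the labels. None of Dmc1, Hormad1, Meioc, Stra8, Sycp3 and Ythdc2 had a wild-type promoter summit, and all 6 had FLAG/FLAG promoter summits in 2 or 3 libraries.

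The strongest wild-type summits are shown first by their sequence, since the sequence is what they shared. The 12 sites with the highest wild-type scores among those seen in at least 2 wild-type libraries were named by rule, a site being summits chained within 200 bp across the wild-type libraries. Most of them held the letters of RE1 (repressor element 1), the binding element of REST, a zinc finger protein that silences neuronal genes in other tissues. RE1 was searched on both strands as TTCAGCACC, 2 bases of any kind, GGACAGCG and CC, with at most 5 of the 19 fixed letters different. The search was chosen after the sequences had been seen, so its counts are descriptions. The lines give the 100 bases around the summit on the plus strand of mm10, with non-overlapping RE1 elements in capitals.
Swsap1 (chr9:21950473-21950572): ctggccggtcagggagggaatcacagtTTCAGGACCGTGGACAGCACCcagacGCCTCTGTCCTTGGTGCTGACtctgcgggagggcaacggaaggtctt
Kcnk9 (chr15:72568668-72568767): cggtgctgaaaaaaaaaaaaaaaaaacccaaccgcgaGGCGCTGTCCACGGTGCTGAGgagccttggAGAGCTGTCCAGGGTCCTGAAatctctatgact
Npas4 (chr19:4989141-4989240): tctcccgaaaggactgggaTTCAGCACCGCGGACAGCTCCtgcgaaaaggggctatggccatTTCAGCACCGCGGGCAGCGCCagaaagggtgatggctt
Phf21b (chr15:84829573-84829672): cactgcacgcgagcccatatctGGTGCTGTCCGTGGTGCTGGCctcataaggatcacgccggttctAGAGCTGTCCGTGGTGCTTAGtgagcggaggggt
Camta1 (chr4:151604629-151604728): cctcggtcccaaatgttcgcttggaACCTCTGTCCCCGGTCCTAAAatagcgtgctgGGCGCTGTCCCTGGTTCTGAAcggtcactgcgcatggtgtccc
Xkr7 (chr2:153032364-153032463): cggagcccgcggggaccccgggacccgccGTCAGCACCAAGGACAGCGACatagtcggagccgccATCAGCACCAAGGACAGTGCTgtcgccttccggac

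The windows at Swsap1, Kcnk9, Npas4, Phf21b, Camta1 and Xkr7 each held 2 elements side by side. At Swsap1 they lay on opposite strands, and at the other 5 sites both were on the same strand. At 2 further sites no 21-base element reached the limit, yet the 7-letter cores of the element, CAGCACC and GGACAGC on either strand, were repeated in tandem. They are capitalized in the next lines, for the site in an intron of Gm33340 (nearest protein-coding TSS that of Dnajb9, 1237375 bp away) and for the site in an intron of Unc5a, the gene of a netrin receptor.
Gm33340 intron (chr12:42972901-42973000): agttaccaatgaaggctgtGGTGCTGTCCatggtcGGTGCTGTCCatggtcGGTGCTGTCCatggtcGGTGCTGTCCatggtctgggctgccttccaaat
Unc5a (chr13:54971017-54971116): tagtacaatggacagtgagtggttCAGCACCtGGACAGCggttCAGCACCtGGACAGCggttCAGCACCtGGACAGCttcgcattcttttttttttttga

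A summit's score is the -log10 p of the peak caller, so a higher score means more significant enrichment over input. Scores also depend on read depth, which was not given, so they do not rank libraries by enrichment. The site 5232 bp from the TSS of Swsap1, a gene for a homologous recombination factor, had the highest wild-type score. It scored 264, 38.8 and 298 in wild-type replicates 1, 2 and 3, and 230, 123 and 281 in the same-numbered FLAG/FLAG libraries. The site near Kcnk9, which codes for a potassium channel, scored 230, 15.2 and 156 in wild-type and 197, 71.0 and 183 in FLAG/FLAG. In both cases replicates 1 and 3 of the 2 genotypes reached scores of the same order, and wild-type replicate 2 was the lowest library.

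The tandem core site in Gm33340 scored 204, 30.3 and 181 in wild-type and 208, 131 and 166 in FLAG/FLAG. The site in Npas4, a neuronal activity-dependent transcription factor, scored 164, 11.8 and 149 against 222, 75.01 and 194. The Unc5a site was absent from wild-type replicate 2 and scored 149 and 65.4 in replicates 1 and 3, against 142, 47.7 and 88.2 in FLAG/FLAG. All 12 named sites had a FLAG/FLAG summit in each of the 3 FLAG/FLAG libraries, and 9 of them were in all 3 wild-type libraries. The remaining named sites lay near Igsf21, Smim17, Gprin1 and Scrt1, in addition to Phf21b, Camta1 and Xkr7, with top wild-type scores from 119 to 149.

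Scores spread widely in each wild-type library, and the bulk was low. The median score was 11.2, 15.2 and 16.8 in wild-type replicates 1, 2 and 3 against 14.4, 13.5 and 14.0 in FLAG/FLAG, and the groups overlapped (exact permutation test over 3 against 3 libraries, two-sided p = 0.8, adjusted p = 0.8 over 6 measures). Scores of 40 and over were reached by 46 of 798, 3 of 45 and 32 of 164 wild-type summits. In FLAG/FLAG these were 609 of 5687, 262 of 3299 and 186 of 2035. The highest score of wild-type replicate 3, 298, lay above the highest of FLAG/FLAG replicate 3, 281.

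**Figure D1:**
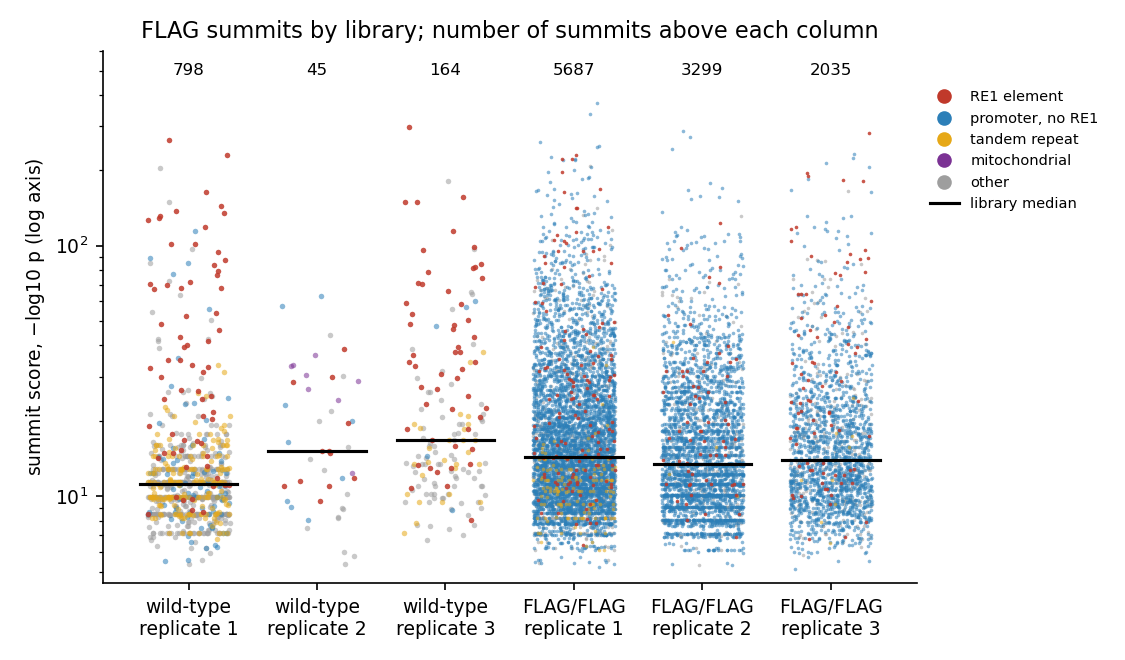
Score of every summit (vertical log axis, -log10 p) in the 3 wild-type and 3 FLAG/FLAG libraries (horizontal axis), coloured by what the 100 bases at the summit hold, with each library's median as a bar. Wild-type summits of high score are mostly red (RE1 element), whereas FLAG/FLAG columns are mostly blue (promoter without RE1).

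The wild-type libraries differed from the FLAG/FLAG libraries in where their summits lay. Within 1 kb of the transcription start site (TSS) of a protein-coding gene were 12.5%, 31.1% and 9.76% of wild-type summits against 78.8%, 87.6% and 82.5% of FLAG/FLAG summits. The groups did not overlap, and the exact test over libraries gave p = 0.1 (adjusted p = 0.12), the smallest p that 3 against 3 allows. Of the genome, 1.97% lies within that distance of a TSS of the 21864 genes annotated. The high share in wild-type replicate 2 rested in part on 8 mitochondrial summits, 4 of which count as promoters of mitochondrial genes, and without them it was 27.0%. Its nuclear promoter summits included those at Gm10800, Gm10801, Gm10717 and Gm21738. There the reference marks at least 55% of the 100 bases as repeats.

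Away from promoters the wild-type summits were split between genes and the space between them. Of the 1007, 440 were intergenic, 403 were in introns, 30 in exons and 130 within 1 kb of a TSS counting the mitochondrial ones, of which 126 were nuclear. The median distance to the nearest protein-coding TSS was 34468.5, 2059 and 31163 bp in wild-type replicates 1, 2 and 3. In the FLAG/FLAG libraries it was 158, 142 and 146 bp.

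Base composition and repeats differed in the same way. The mean GC share of the 100 bases was 45.8%, 44.5% and 49.6% in wild-type and 67.7%, 68.7% and 68.7% in FLAG/FLAG, with no overlap (exact p = 0.1, adjusted p = 0.12). Windows that were mostly soft-masked, the mark of known repeats in the reference, made up 36.5%, 31.1% and 21.3% of wild-type summits and 5.59%, 1.58% and 1.28% of FLAG/FLAG summits (exact p = 0.1, adjusted p = 0.12), while 36.4% of all reference bases are soft-masked. The study found the motif CNCCTCAG de novo at summits from the pooled reads of these same FLAG/FLAG libraries. A higher share in FLAG/FLAG than in wild-type windows therefore partly follows from how the motif was derived. It was in 1.63%, 2.22% and 3.66% of wild-type windows and in 9.65%, 13.9% and 15.5% of FLAG/FLAG windows (exact p = 0.1, adjusted p = 0.12). It is found in 1.39% of all 100-base windows of the genome, on either strand. The number of summits itself was lower in each wild-type library than in each FLAG/FLAG library, again at the smallest p of 0.1 (adjusted p = 0.12).

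RE1 elements were the main feature of the strong wild-type summits. An element lay in the window of 68 of 798 summits in wild-type replicate 1 (8.52%), 12 of 45 in replicate 2 (26.7%) and 53 of 164 in replicate 3 (32.3%), together 133 of 1007 (13.2%, 95% Wilson interval 11.3 to 15.4, and 31.1% without replicate 1). In FLAG/FLAG they were 140 of 5687 (2.46%), 66 of 3299 (2.00%) and 83 of 2035 (4.08%). Of all 100-base windows of the genome, 0.135% hold one. The cores were more frequent on both sides, with either core in 18.6% of wild-type and 7.07% of FLAG/FLAG windows and in 3.37% of genome windows. These shares describe the called regions, and their intervals cover counting error only.

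The share with an element grew with the score. It was 2.06% of the 388 wild-type summits under a score of 10, 8.02% of the 449 between 10 and 20, 40.4% of the 89 between 20 and 40 and 65.4% of the 81 at 40 or more. Counting either core as well, 84.0% of the 81 strongest held the element or a core of it. Wild-type replicate 2 did not follow this order, as none of its 3 summits of 40 and over held an element. In FLAG/FLAG replicate 3 the element was in 16.7% of summits of 40 and over, compared with 71.9% in wild-type replicate 3.

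**Figure D2:**
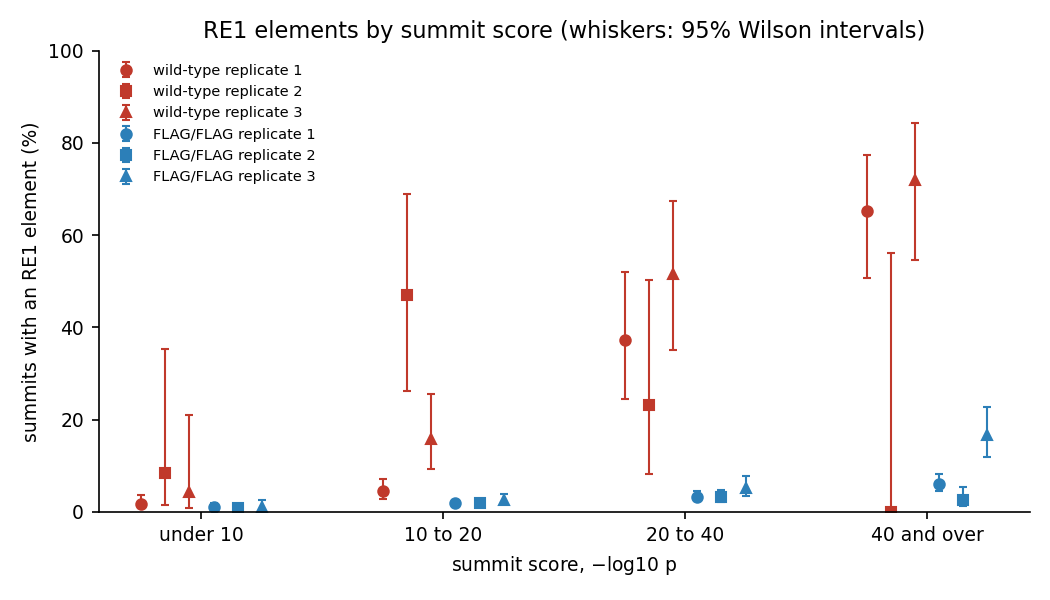
Share of summits with an RE1 element in percent (vertical axis) by score range (horizontal axis) for each library, with 95% Wilson intervals as whiskers, wild-type in red and FLAG/FLAG in blue. At scores of 40 and over the share was 65.2% and 71.9% in wild-type replicates 1 and 3 and 6.08%, 2.67% and 16.7% in FLAG/FLAG.

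The median distance between the element's middle and the summit was 16, 18.5 and 13 bases in wild-type replicates 1, 2 and 3. Only elements lying wholly within 50 bases to each side of the summit were counted, so the search itself kept this distance short. Whether elements gathered at the summit within that window was not tested. The number of differing letters in the best element was 1 in 13 wild-type summits, 2 in 48, 3 in 37, 4 in 21 and 5 in 14. The elements were on the plus strand in 38 of 68, 5 of 12 and 30 of 53.

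A close RE1 match alone was seldom under a summit, however, whereas clustered matches often were. The mm10 reference holds 1296 matches with at most 3 differing letters, and 88 of them (6.79%) had a wild-type summit within 100 bp. Of the 1130 matches with no further match of at most 6 differing letters within 100 bases, 12 (1.06%, interval 0.609 to 1.85) had a wild-type summit. With 1 further match it was 46 of 124 (37.1%, 29.1 to 45.9), with 2 it was 19 of 31 (61.3%, 43.8 to 76.3), and with 3 or more it was 11 of 11 (interval 74.1 to 100). The FLAG/FLAG summits gave a like order, with 19 of 1130, 51 of 124, 23 of 31 and 11 of 11.

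Matches of 1 cluster are counted more than once in these shares, so they were also counted by cluster. A wild-type summit was at 12 of 1130 lone matches, 26 of 101 clusters with 1 further match, 13 of 24 with 2 and 6 of 6 with more. Among the 88 matches with a wild-type summit, 86.4% had a further match nearby, against 12.8% of all 1296. Of the 12 places in the genome where all 19 letters match, 1 had a wild-type summit, near Rapgef1 in replicates 1 and 3, and none had a FLAG/FLAG summit. The grouping by further matches was also chosen after seeing the sequences. Whether REST itself was retained at these elements was not tested.

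**Figure D3:**
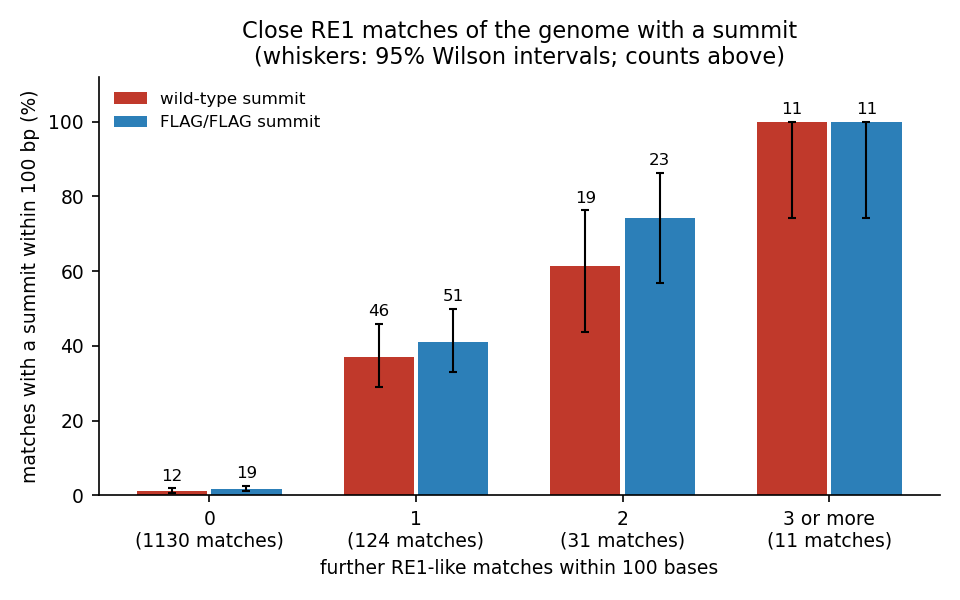
Share of close RE1 matches of the reference with a summit within 100 bp in percent (vertical axis), by the number of further matches within 100 bases (horizontal axis, with the number of matches), for wild-type (red) and FLAG/FLAG (blue) summits, with 95% Wilson intervals as whiskers and counts above. The wild-type share was 1.06% for lone matches and 37.1%, 61.3% and 100% with 1, 2 and 3 or more further matches.

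A minority of sites was shared between wild-type libraries. The 1007 summits formed 876 sites, of which 758 were in 1 wild-type library, 105 in 2 and 13 in all 3. An RE1 element was in 27 of the 758, 38 of the 105 and 11 of the 13, and the other 2 of the 13 held a core. All 13 sites were in the 3 FLAG/FLAG libraries too. By pairs, 28 summits of wild-type replicate 1 had a replicate 2 summit within 200 bp and 103 had a replicate 3 summit, whereas 13 summits of replicate 2 had one in replicate 3. Of the 118 sites in at least 2 wild-type libraries, 49 held an RE1 element, 64 an element or a core and 24 a tandem repeat. Of these 118, leaving out replicate 1 left 13 and leaving out replicate 3 left 28.

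A FLAG/FLAG summit lay within 200 bp of 261 of 798 (32.7%), 23 of 45 (51.1%) and 109 of 164 (66.5%) summits of wild-type replicates 1, 2 and 3. Together this was 393 of 1007 (39.0%, 36.1 to 42.1). The share was 22.8% for sites in 1 wild-type library, 86.7% for those in 2 and 100% for those in 3. It was 122 of 133 (91.7%) for summits with an RE1 element and 271 of 874 for those without. All 81 wild-type summits at a score of 40 or more had a FLAG/FLAG summit within that distance. Leaving out FLAG/FLAG replicate 1 lowered the overall share from 39.0% to 23.1%. That library was the largest and also shared its batch with wild-type replicate 1, and the 2 cannot be told apart here. Leaving out wild-type replicate 1, which held most of the summits, raised the overall share to 63.2%.

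Seen from the tagged libraries, the overlap was small and lay mostly away from promoters. Of 11021 FLAG/FLAG summits, 458 (4.16%) had a wild-type summit within 200 bp. These were 120 of 9049 promoter summits (1.33%) and 338 of 1972 others (17.1%). For FLAG/FLAG summits with an RE1 element it was 158 of 289 (54.7%), or 129 of 163 (79.1%) away from promoters and 29 of 126 (23.0%) at promoters. Among the 20 highest FLAG/FLAG summits of each library, 5, 2 and 7 had a wild-type summit.

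The shared sites were scored against the FLAG/FLAG library of the same batch. At RE1 elements, batch 1 had 58 pairs with a median score of 40.9 in wild-type and 48.2 in FLAG/FLAG, and wild-type was higher in 23. Batch 3 had 52 pairs at 37.2 and 48.5, and wild-type was higher in 10. Batch 2 had 11 pairs at 15.2 and 52.9, and wild-type was higher in none. The median wild-type to FLAG/FLAG ratio was 0.877 in batch 1 (0.297 to 2.04), 0.786 in batch 3 (0.31 to 1.87) and 0.347 in batch 2 (0.157 to 0.693), where the wild-type library had 45 summits. Scores depend on read depth, which was not given, so their part in these ratios was not tested.

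**Figure D4:**
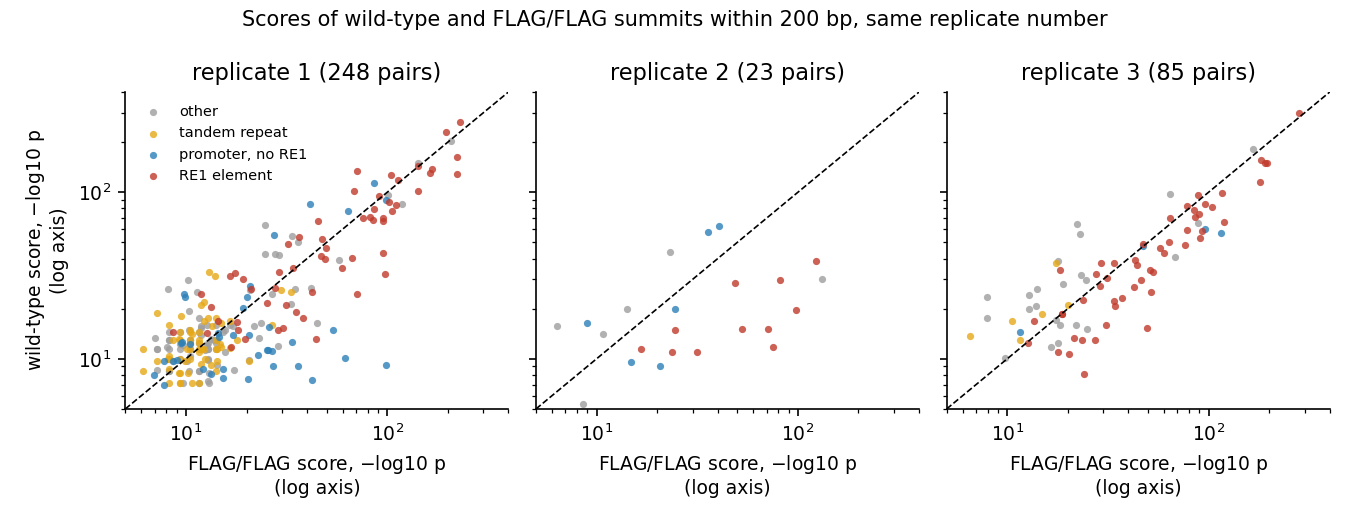
Score of each wild-type summit (vertical log axis, -log10 p) against that of the FLAG/FLAG summit within 200 bp in the same batch (horizontal log axis), one panel per replicate number, with a dashed line of equality. At RE1 elements (red) the wild-type score was the higher in 23 of 58 pairs of replicate 1, 10 of 52 of replicate 3 and 0 of 11 of replicate 2.

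Tandem repeats were the other large class, and it was bound to batches. A perfect tandem repeat of at least 30 bases, with a unit of 1 to 6 bases, was in the window of 200 (25.1%), 0 and 27 (16.5%) summits of wild-type replicates 1, 2 and 3. The FLAG/FLAG libraries had 143, 4 and 13, and 1.82% of genome windows hold such a repeat. The main units were GGAAA and GGAAG, in 166 summits of wild-type replicate 1 and 107 of FLAG/FLAG replicate 1. They were in none of either replicate 2 library, in 1 summit of wild-type replicate 3 and in none of FLAG/FLAG replicate 3. Their scores were low, with a median of 11.4 and a maximum of 25.1 in wild-type replicate 1, and 44 of the 166 had a FLAG/FLAG replicate 1 summit within 200 bp.

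Perfect repeats of AGGAT and of TTAGG were seen in batches 1 and 3 of both genotypes. AGGAT repeats were in 12, 0 and 8 wild-type and 11, 0 and 6 FLAG/FLAG summits. Windows with at least 4 copies of TTAGG, a letter short of the telomere unit, numbered 14, 0 and 16 in wild-type and 12, 3 and 4 in FLAG/FLAG. These copies need not form an unbroken repeat, and FLAG/FLAG replicate 2 had some such windows. Some of these scored high, among them the site near Rdx, which codes for radixin, with 96.8 and 64.1 in wild-type replicates 1 and 3 and 101, 10.1 and 22.3 in FLAG/FLAG. Its window is printed with TTAGG in capitals.
TTAGG repeat, Rdx (chr9:52036069-52036168): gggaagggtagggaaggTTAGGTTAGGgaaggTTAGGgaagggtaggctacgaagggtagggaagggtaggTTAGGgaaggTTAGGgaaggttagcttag

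Wild-type replicate 2 was led by other sequence. Its 3 highest summits were at Gm10800 (62.8), at Gm10801 (57.5) and in an intron of Gm33838 (44.0), and at least 55.0% of each window is soft-masked. The Gm10800 site scored 85.4 in wild-type replicate 1 and 41.6 and 40.4 in FLAG/FLAG replicates 1 and 2, and had no summit in either replicate 3 library. The same held at Gm10801 and Gm33838, so these loci were seen in both genotypes of the batches made with the TruSeq kit and in neither library made with the Accel kit. The kit and the batch cannot be told apart. The 8 mitochondrial summits, with scores from 12.4 to 36.6, were in wild-type replicate 2 alone.

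At promoters, 114 protein-coding genes had a wild-type summit within 1 kb of a TSS, 5 of them mitochondrial. Wild-type replicate 1 alone supplied 86, and 92 of the 114 were seen in 1 library, 20 in 2 and 2 in all 3. An RE1 element was at the wild-type promoter summit of 16. FLAG/FLAG promoter summits in at least 2 libraries were found for 68 of the 114 (59.6%), beside 13.4% of all 21864 protein-coding genes (2927 genes). Removing genes with a wild-type summit therefore left 2859. Without wild-type replicate 1 the 114 genes became 28 and the 68 became 19.

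The highest wild-type promoter scores included several genes known from the nervous system. Xkr7, which codes for an XK-related membrane protein, scored 135 and 59.0 in wild-type replicates 1 and 3 and 70.4, 26.0 and 78.1 in FLAG/FLAG. Scrt1, a neuronal zinc finger repressor, scored 119, 14.8 and 82.5 against 114, 24.7 and 78.4. Cacng2, a regulatory subunit of glutamate receptors, scored 114, 9.04 and 57.1 against 86.0, 20.6 and 115 with no element in its window. Glra1, a glycine receptor subunit, scored 94.7 and 95.9 in replicates 1 and 3 against 90.6, 19.8 and 88.5.

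Celsr3, an adhesion receptor of axon guidance, scored 89.7 and 60.3 in wild-type replicates 1 and 3 with no element, and Insm2, a zinc finger factor, 77.0 and 47.7, likewise with none. Rtbdn, Iqsec3, Golga7b, L1cam, Snap25 and Barhl1 had an element each, with top wild-type scores from 25.1 to 79.3. L1cam is a neural adhesion molecule and Snap25 a component of synaptic vesicle fusion. Gm10800, Gm10801, Gm10717 and Gm21738 had summits in wild-type replicates 1 and 2 and in neither replicate 3 library. The mitochondrial genes mt-Nd1, mt-Cytb, mt-Nd6 and mt-Nd5 complete the 20 named by rule.

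The genes shared with the tagged mice were described with and without an RE1 element. For the 11 genes with an RE1 element and FLAG/FLAG summits in at least 2 libraries, the median top score was 52.3 in wild-type and 47.3 in FLAG/FLAG, and FLAG/FLAG was higher in 5 (FLAG/FLAG to wild-type ratio 0.579 to 1.68). For the 57 without an element it was 10.1 and 26.9, with FLAG/FLAG higher in 49 and a median ratio of 2.40 (0.487 to 18.5). A top score is the highest over the libraries of a genotype, and FLAG/FLAG summits in at least 2 were required. It was taken over all summits within 1 kb of a TSS of the gene. The wild-type and FLAG/FLAG summits of a gene therefore need not lie within 200 bp of each other. Most of the 57 had a wild-type summit in a single library, whereas the 11 had one in at least 2. The ratios therefore partly follow from the choice of genes and do not compare the genotypes evenly. The ranges overlap, and Cacng2, Celsr3, Gm10800 and Insm2 scored as high without an element as genes with one. The motif CNCCTCAG was at a FLAG/FLAG promoter summit of 8 of these 68 genes and of 683 of the 2859 kept. The study derived that motif at promoters of genes in its own bound list. Of the kept genes, 66 had an RE1 element at a FLAG/FLAG promoter summit, and for 5 it was so in each FLAG/FLAG library with a summit.

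Over all protein-coding genes, 0.521% had a wild-type promoter summit, and the fixed gene families are too small to be read against that share. The counts were 0 of 98 ribosomal protein genes, 0 of 78 histone genes and 0 of 50 proteasome genes. The translation factors gave 1 of 69 (Eif4h), the heat shock genes 1 of 75 (Dnajb13) and the Zfp zinc finger genes 2 of 397 (Zfp26 and Zfp583).

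RNA of these genes was read in the sorted preleptotene cells, whereas the ChIP used unsorted testes. Of the 16 genes with an RE1 element at a wild-type promoter summit, 3 exceeded 1 TPM (transcripts scaled by length and by library total) in at least 1 of 7 libraries, and the median of their highest TPM was 0.200. Those 3 were Dlgap3, Hpca and Chga, and Glra1 was listed at 0 in each library. Of the 93 genes without an element that were measured, 74 exceeded 1 TPM, with a median of 59.7 TPM. Of all 22100 genes measured, 56.1% did. Rest itself, looked up after the elements had been seen, measured 32.5, 27.7 and 24.7 TPM in Stra8-deficient, 10.05 and 13.3 in low-STRA8 and 15.3 and 14.6 in high-STRA8 cells.

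**Figure D5:**
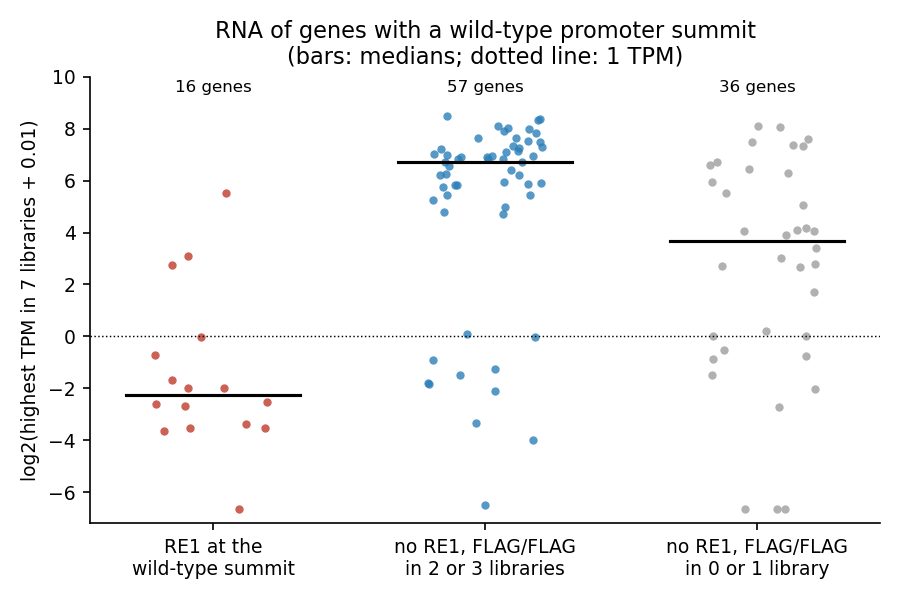
Highest TPM over the 7 RNA libraries for each of 109 measured genes with a wild-type promoter summit, as log2 of TPM plus 0.01 (vertical axis), for genes with an RE1 element at the summit and for genes without one by the number of FLAG/FLAG libraries with a promoter summit (horizontal axis), with medians as bars. Most of the 16 genes with an element lie under the dotted line of 1 TPM, while most of the 57 without one and with FLAG/FLAG summits in 2 or 3 libraries lie above it.

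High-STRA8 and Stra8-deficient cells were compared for the 77 genes over 1 TPM. By edgeR's quasi-likelihood test over 12398 genes, at an adjusted p under 0.05, 19 of the 77 were higher in high-STRA8 cells (24.7%, beside 18.9% of all genes tested) and 5 were lower (6.49%, beside 18.2%). The median log2 difference was 0.17 over the 77 and -0.02 over all genes tested. Of the 19, 16 were among the 48 genes that also had FLAG/FLAG promoter summits in at least 2 libraries (33.3%). Of all genes over 1 TPM with such FLAG/FLAG summits, 47.4% were higher. Among genes with no element and FLAG/FLAG summits in at most 1 library, 3 of 27 were higher (11.1%). The calls rested in part on single libraries, since 15 of the 77 were called without high-STRA8 replicate 1 and 11 without high-STRA8 replicate 2, the lone library left being assumed to vary like the other groups. Of the 77, 3 had an RE1 element, and none of these was among the 19 that were higher. Among the 19, Zfx, an X-linked zinc finger transcription factor, measured 48.4, 43.0 and 38.0 TPM in Stra8-deficient and 76.5 and 76.4 TPM in high-STRA8 cells, with a log2 difference of 0.88 (edgeR adjusted p = 0.000915). Eif4h rose from 135, 143 and 132 TPM to 179 and 169 TPM (log2 difference 0.45, edgeR adjusted p = 0.00508). Both had a wild-type promoter summit in replicate 1 alone and FLAG/FLAG promoter summits in 3 libraries. Promoter summits were assigned within 1 kb of a TSS, so those of the 2 genotypes need not coincide. These genes were chosen as examples after their values were seen.

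The 5 lower genes were less firmly called, with 1 lower gene without high-STRA8 replicate 1 and 1 without high-STRA8 replicate 2, 2 without Stra8-deficient replicate 3, 3 with the replicate number as a block or without the TPM filter, and 9 with limma. The count stayed at 5 with DESeq2 and without Stra8-deficient replicate 2, and was 4 without Stra8-deficient replicate 1. The 5 lower genes were Chga and Dlgap3, with an element, and Btbd2, Cdk9 and Rbm33, without. Chga, which codes for the secretory granule protein chromogranin A, measured 38.8, 46.2 and 45.8 TPM in Stra8-deficient and 24.5 and 28.4 TPM in high-STRA8 cells (log2 difference -0.64, edgeR adjusted p = 0.00818). Dlgap3, a postsynaptic scaffold gene, measured 6.15, 5.67 and 6.70 TPM against 3.76 and 4.15 TPM (log2 difference -0.57, edgeR adjusted p = 0.0273). Low-STRA8 cells lay below both, at 12.3 and 12.3 TPM for Chga and 2.89 and 3.19 TPM for Dlgap3. Fewer cells of a type and less RNA per cell cannot be told apart in such bulk libraries.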

How the data were processed

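The study trimmed reads to 40 bases and aligned them to mm10 with Bowtie 1.2.0 allowing 1 mismatch, and the authors called peaks in each ChIP library against its own input with MACS2 2.1.1.20160309, so the deposited score of a summit is a -log10 p. The summits used here were called per replicate. The methods remove peaks over blacklisted regions. Whether the deposited summits precede that step was not tested. Deposited TPM values and estimated counts were made by the authors with kallisto 0.43.0 from 7 poly-A libraries of 25049625 to 30015072 estimated counts.

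All summits were used. Windows of 100 bases were read from GRCm38 (mm10, RefSeq), whose lower case marks repeats, and TSSs from GENCODE M21 basic genes. RE1 and repeats were searched with Python 3.11.15, numpy 2.4.6 and pandas 2.3.3, checked on known sequences. Library values were compared by exact permutation over 3 against 3 libraries (20 assignments, smallest p = 0.1), adjusted by Benjamini-Hochberg over 6 measures. Estimated counts, rounded and summed by gene, were tested with edgeR 4.0.16 (TMM, quasi-likelihood, genes over 1 TPM in at least 1 of 7 libraries), tested on simulated data, and with DESeq2 1.42.0 and limma 3.58.1 as alternatives. Gene symbols of 22100 of 22419 genes matched. Each ChIP library is 1 mouse. The RNA libraries are biological replicates by the paper, and their p-values measure the spread between the samples given. Replicate numbers mark shared processing batches for ChIP, by the study's methods, so a sign-flip test over pairs was also run. For RNA they mark no stated batch, since the paper prepared and pooled all 7 libraries together. The replicate block in the RNA fit is therefore an arbitrary pairing.

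Named were sites in at least 2 wild-type libraries up to the 12 highest scores, the 5 highest summits of each wild-type library, the 20 genes with the highest wild-type promoter score, and members of fixed lists with a wild-type promoter summit. The regions and lists were chosen with earlier results of these data known. The sequence of 1 repeat region is not reported here.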

Additional observations from a re-analysis of the deposited data

How the results depend on the processing

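Every difference between wild-type and FLAG/FLAG libraries other than the median score kept its direction under each setting tried. With the replicate number as a block (exact sign-flip permutation over 3 pairs), the differences in summits per library, promoter, soft-masked, CNCCTCAG and GC share had p = 0.25, the smallest that 3 pairs allow, and the median score had p = 1.0. The median score difference, 0.45 in favour of wild-type, ran from -0.7447 (without wild-type replicate 3) to 2.045 (without wild-type replicate 1) with 1 library left out, and turned to -0.38 without mitochondrial summits, an alternative chosen after seeing the data. The share of wild-type summits near a FLAG/FLAG summit, 39.0%, was 27.4% at a distance of 50 bp. It was 47.3% with scores of at least 10 in both genotypes, and ran from 23.1% to 63.2% with 1 library left out. Among wild-type summits without a tandem repeat it was 39.5%. With tandem-repeat summits left out of both genotypes it was 35.6% (added later). Sites shared between wild-type libraries, 118, ran from 13 to 103. Genes with a wild-type promoter summit, 114, fell to 66 at scores of at least 10 and ran from 28 to 114. Their called genes, 24 of 77, ran from 11 to 32 and numbered 22 with the replicate block in edgeR. With further matches limited to 5 differing letters (added later), wild-type summits were at 15 of 1193, 51 of 78, 14 of 17 and 8 of 8 close RE1 matches with 0, 1, 2 and 3 or more of them. Read depth was not given, so a site without a summit is not shown to lack enrichment.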
